A study of Mus musculus with 7 samples.

Results

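The genes described here are the transporters that carry organic anions, organic cations, bile acids, hormones and drugs across membranes. They were chosen by symbol, as every probe set whose single gene symbol in the platform annotation begins with Slc22a, Slco, Slc47a or Slc51, or with Abcb, Abcc or Abcg and a digit. That gave 63 genes of 18278 with a single symbol on any array. On the sense side they were read by 112 of 45037 probe sets, and 8 of them also had a reverse probe set.

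RNA of kidney and brain of mice, labelled as total tissue, was hybridised to 7 Affymetrix arrays with 1 array per tissue and design. Kidney antisense came from U74A and U74B arrays, and kidney sense from a single array that carries the 430A and 430B probe sets together. Brain antisense came from U74A and U74B arrays and brain sense from a 430A and a 430B array. The U74 arrays carry probe sets in reverse orientation, which bind RNA running opposite to the annotated transcript, and the deposited U74 values are those of the reverse probe sets. Labelling started from 6.75 micrograms of kidney RNA and 8 micrograms of brain RNA, and no strain, age, sex, allele or treatment is given in the labels. No value has a replicate error, no p-value is given, and each fold compares these arrays, not groups of animals. The question behind the series is how sense and antisense transcripts compare within and between these tissues.

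Excretion of organic anions and cations in the kidney proceeds across proximal tubule cells in successive steps. Uptake carriers of the Slc22a family on the blood side bring in urate, drugs and conjugated metabolites, and proton exchangers and ATP-driven pumps on the urine side release them. At the blood-brain barrier and in the choroid plexus, pumps of the Abcb, Abcc and Abcg families keep foreign compounds out, and Slco carriers bring in hormones such as thyroxine. Several family members act elsewhere, in mitochondria or lysosomes, in cholesterol export, or as subunits of potassium channels.

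Signals are MAS5 values on a linear scale. Each brain sense array was centred against the kidney array, which added 0.84 to brain 430A and -2.11 to brain 430B signals on the log2 scale. A floor stood in for detection calls, which on the kidney array's scale was a signal of 186.4 for probe sets of 430A and of 27.9 for those of 430B. Signals printed below are as deposited, whereas folds and log2 ratios are kidney over brain after centring and floor, so they differ from the plain ratio of the printed signals. The words at least mark a fold whose lower side was under the floor, and a gene counted as higher in a tissue from 2-fold. A gene with several probe sets was represented by the one with the highest mean rank in both tissues.

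The scale of brain 430B is the weakest point of the sense comparison. The 100 probe sets present on both brain arrays gave another scale for it, with a constant of -0.49 in place of -2.11, which moves 430B ratios towards brain. Values on that 430A scale are printed beside the ratios of genes read on 430B. The same 100 probe sets were the only repeat reading, and their log2 differences had an SD of 0.25 over the 98 that exceeded both medians. Tissue and array design cannot be told apart on the sense side.

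The preparations carried the markers of their labels. Kidney was higher for 10 of 12 proximal tubule genes (9 on the 430A scale) and brain for 1, Lrp2, which was read on 430B at 28.1 in kidney and 311.7 in brain. Of 11 neuronal genes 11 were higher in brain. Slc34a1 and Slc5a2, the phosphate and glucose carriers of the proximal tubule, read 4768.3 and 2826.4 in kidney, against 62.5 and 116 in brain. Of 8 endothelial genes 4 were higher in kidney and none in brain (1, Flt1, on the 430A scale), with signals of 77.5 to 850.7 in kidney and 77.5 to 290.4 in brain. Of 10 choroid plexus genes 6 were higher in kidney (5 on the 430A scale) and none in brain. The first listed, Ttr, read 5593.3 in kidney and 5014 in brain, above the floor in both, and the second, Kl, 2295.5 and 88.1. Otx2 and Kcne2 were below the floor in both tissues. No gene of these lists read 0. The summed signal of the 6 pituitary genes was 153.2 in kidney and 24200.4 in brain after centring, with Gh at 33.8 in kidney and 5129.1 in brain. The X-linked noncoding RNA Xist read 37.6 in kidney and 1421.7 in brain, and the Y-linked Eif2s3y 339.9 in kidney and 1.1 in brain. Sex-linked transcripts thus differed between the tissues, and sex, which the labels do not give, cannot be told apart from tissue. Fewer cells of a type and less RNA per cell cannot be told apart in such tissue RNA. The part of these differences in the transporter results was not tested.

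Of the 63 transporters, 19 were higher in kidney and 9 in brain on the sense arrays. Another 15 were above the floor but not called, and 20 were below the floor in both tissues. Ratios of several of the 15, such as Slc22a27 and Abcc2, were lower bounds, so 2-fold or more is not excluded for these. The share higher in kidney was 30.2%, beside 18.9% of all 18193 genes. The share higher in brain was 14.3%, beside 12.9% of all genes, which is near the background. Among the 48 transporters read on 430A, 29.2% were higher in kidney and 16.7% in brain, beside 13.8% and 13.1% of all genes read there. Among the 15 read on 430B, 33.3% and 6.67% were, beside 26.4% and 12.5%. The distance to the background in the kidney direction was wider on 430A than on 430B. With 430B at the 430A scale 17 transporters were higher in kidney and 10 in brain, 27.0% and 15.9%, beside 10.8% and 18.3% of all genes. With 430A alone 14 and 8 of 53 were, beside 13.0% and 12.8%. The median log2 ratio was 0 for the transporters and 0 for all genes, because the floor sets many ratios to 0.

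By family, 14 of the 39 Slc genes were higher in kidney and 3 in brain, or 13 and 4 on the 430A scale. Among the 24 ABC genes, 5 were higher in kidney and 6 in brain, or 4 and 6 on the 430A scale. Beside the 18.9% and 12.9% of all genes, the ABC count in kidney was near the background. The difference between the families was not tested.

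**Figure D1:**
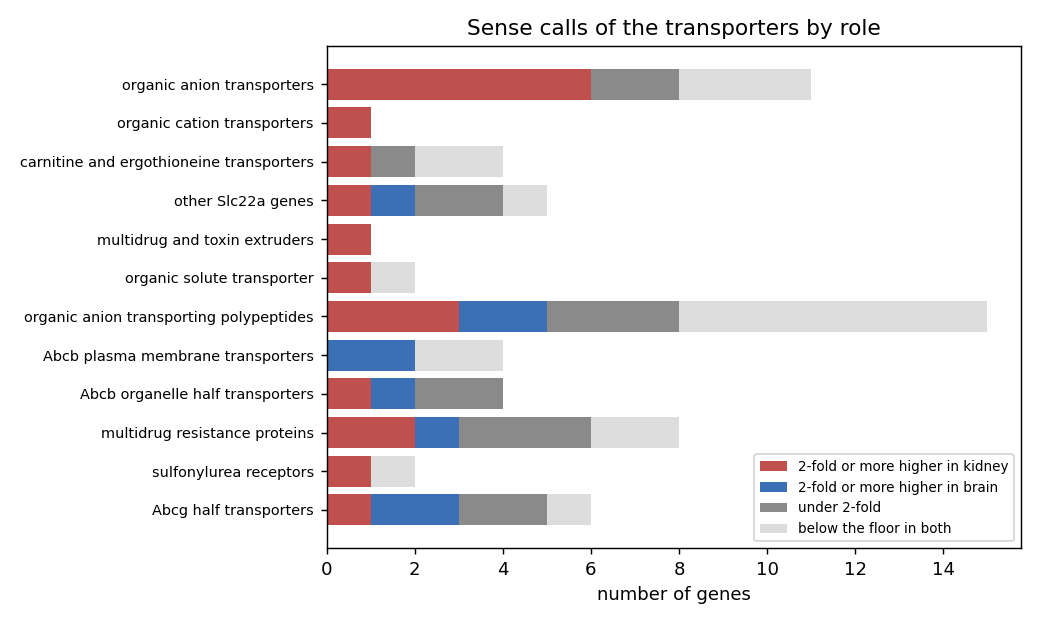
Number of transporter genes in each role group by sense call: 2-fold or more higher in kidney (red), 2-fold or more higher in brain (blue), above the floor but not called (dark grey, marked under 2-fold, bounds included) and below the floor in both tissues (light grey). Organic anion transporters have 6 of 11 genes higher in kidney and none in brain, and the Abcb plasma membrane group has 2 of 4 higher in brain and none in kidney. Over all genes 18.9% were higher in kidney and 12.9% in brain.

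Organic anion transporters of the Slc22a family were the group with the most genes on the kidney side, 6 of 11, with none on the brain side. All 11 were read on 430A, where 13.8% of all genes were higher in kidney and 13.1% in brain. Slc22a8, the basolateral anion carrier OAT3, gave signals of 2205.8 and 428.7 from its probe sets in kidney, against 92 and 84.7 in brain. It was at least 11.8-fold higher in kidney. Slc22a6, the basolateral carrier OAT1 that exchanges drugs and urate for dicarboxylates, gave 707.8 and 146.5 in kidney and 31.5 and 12 in brain, an excess in kidney of at least 3.80-fold. Both probe sets of each gene read higher in kidney, although the weaker one of Slc22a6 stayed below the floor in both tissues. The Slc22a6 call was lost with the floor at the 75th percentile (log2 ratio 0.62) and with the median over probe sets (0.96). OAT3 is also known from the choroid plexus and the blood-brain barrier, but its brain signals lay below the floor.

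Slc22a12, the urate reabsorbing carrier URAT1 of the apical membrane, gave signals of 918.5 and 313 in kidney and 149.2 and 66.6 in brain. It was 3.44-fold higher in kidney by the first probe set, which carries a suffix mark and may bind related transcripts. The other probe set gave a bound of at least 1.68-fold and no call. Slc22a13, known as OAT10 and a carrier of urate and nicotinate, read 606.2 in kidney and 79.4 in brain, an excess in kidney of at least 3.25-fold. Slc22a19, the mouse carrier OAT5, read 641.7 in kidney and 1.8 in brain, an excess in kidney of at least 3.44-fold. Slc22a29 read 1484.8 in kidney and 19.2 in brain, an excess in kidney of at least 7.97-fold, through a single probe set with the suffix _x_at, a mark of probes shared with similar sequences. These genes were each above the kidney floor, and only Slc22a12 was above it in brain.

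The remaining anion carriers of the family were not called. Slc22a27 read 320.9 in kidney and 9.6 in brain, and Slc22a30 231.9 and 21.2, both above the floor in kidney only. Slc22a22, a prostaglandin carrier known as OAT-PG, read 127.1 in kidney and 1.8 in brain and stayed below the floor, as did Slc22a7 (47.7 and 64.3) and Slc22a26 (30.3 and 83.5). The low signals of both tissues leave no order for these last genes. A further probe set that names Slc22a30 together with Slc22a29 was left out.

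Slc22a8 and Slc22a6 lie on chromosome 19 in a run of 7 measured Slc22a genes with at most 1 other protein-coding gene between them. In gene order the run holds Slc22a19, Slc22a26, Slc22a27, Slc22a29, Slc22a30, Slc22a8 and Slc22a6. Of the 7, 4 were higher in kidney, none was higher in brain and 1 was below the floor. They were read on 430A, where 13.8% of all genes were higher in kidney and 13.1% in brain. The promoter windows of 3 of the 4 (250 bases before to 50 after the start, RefSeq, GRCm38.p6) are shown because they hold the letters GTTAAT or the reverse complement ATTAAC, part of the site of the hepatocyte nuclear factor HNF1. The windows were picked after this search, and capitals mark the match.
Slc22a8 (chr19:8592932-8593231, plus strand): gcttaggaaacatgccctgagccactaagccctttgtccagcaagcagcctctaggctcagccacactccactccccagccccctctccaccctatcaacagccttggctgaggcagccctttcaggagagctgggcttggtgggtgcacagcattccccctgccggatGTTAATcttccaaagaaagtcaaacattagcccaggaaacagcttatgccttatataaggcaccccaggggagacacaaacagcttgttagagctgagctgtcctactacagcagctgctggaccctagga
Slc22a6 (chr19:8617746-8618045, plus strand): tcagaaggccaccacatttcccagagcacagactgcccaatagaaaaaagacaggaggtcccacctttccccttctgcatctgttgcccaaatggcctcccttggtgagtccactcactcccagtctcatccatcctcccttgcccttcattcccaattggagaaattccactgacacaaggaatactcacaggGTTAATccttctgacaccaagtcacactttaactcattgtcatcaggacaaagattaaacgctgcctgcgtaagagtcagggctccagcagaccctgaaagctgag
Slc22a29 (chr19:8218851-8219150, minus strand): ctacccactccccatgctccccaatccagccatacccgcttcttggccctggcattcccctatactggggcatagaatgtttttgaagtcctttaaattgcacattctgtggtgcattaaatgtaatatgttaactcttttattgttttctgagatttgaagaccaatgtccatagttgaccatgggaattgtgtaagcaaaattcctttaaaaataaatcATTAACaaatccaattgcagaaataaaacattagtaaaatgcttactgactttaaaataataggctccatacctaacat

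The match began 81 bases before the start in Slc22a8, 56 before it in Slc22a6 and 29 before it in Slc22a29, there on the opposite strand. On either strand GTTAAT was present in 7.10% of all 32851 promoter windows. Among the transporters with a window it was present in 4 of 51 genes, in 3 of 17 higher in kidney and in 0 of 6 higher in brain. The fourth gene was the liver carrier Slco1b2. The full HNF1 palindrome, which contains these letters, was in none of the 51. It was in only 3 of all 32851 windows, so its absence here says nothing about these genes. Other letters searched on both strands were TGACNNNGC of the antioxidant response element, CAAAGTCC of the HNF4 site, GGGCGG of the Sp1 site and TATAAA of the TATA box. They were present in 2, 0, 8 and 3 of the 17 kidney genes, and in 12.4%, 1.42%, 35.7% and 13.6% of all windows. A gene counted if any of its windows held the letters, and the 51 genes had 61 windows. The percentages are of single windows, so gene counts and percentages are not like measures. These matches describe letters in the windows and are not binding data.

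The organic cation route had its uptake and its release step on the kidney side. Slc22a2, the basolateral cation carrier OCT2, read 973.5 in kidney and 10.5 in brain, an excess in kidney of at least 5.22-fold. Slc47a1, the proton-coupled exchanger MATE1 that moves cations into urine, read 1785.5 in kidney and 32.7 in brain, an excess in kidney of at least 9.58-fold. Each had 1 probe set without a suffix mark. Both kept the 2-fold difference under all 8 alternative settings.

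Of the carnitine and ergothioneine carriers, 1 of 4 was higher in kidney, beside 18.9% of all genes. Slc22a5, the carnitine carrier OCTN2, read 1272.1 in kidney and 160.4 in brain, 4.43-fold higher with both tissues above the floor. Its other probe set went against this, with 88.4 in kidney and 113.6 in brain and a log2 ratio of -0.13. Slc22a4 (78.7 in kidney and 27 in brain) and Slc22a21 (35.6 and 1.3), its neighbours on chromosome 11, were below the floor, and the carnitine carrier Slc22a16 read 30 and 22.4, below the floor in both on the 430A scale. Of these neighbours Slc22a5 alone passed 2-fold.

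Slc22a17 stood at the opposite end of the family. This gene, whose product binds lipocalin 2, read 196.4 in kidney and 1485.4 in brain by a single suffix-marked probe set. It was 13.6-fold higher in brain, the largest ratio towards brain among the 63 transporters. Slc22a18, an imprinted gene of the same family, gave 896 and 277 in kidney against 17 and 37.7 in brain, at least 4.81-fold higher in kidney. Slc22a23 read 447.9 in kidney and 355.6 in brain, a log2 ratio of -0.51 after centring, and Slc22a15 read 35.6 and 239.7 with a log2 ratio of -0.64, or -0.99 on the 430A scale. Slc22a14 was below the floor.

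**Figure D2:**
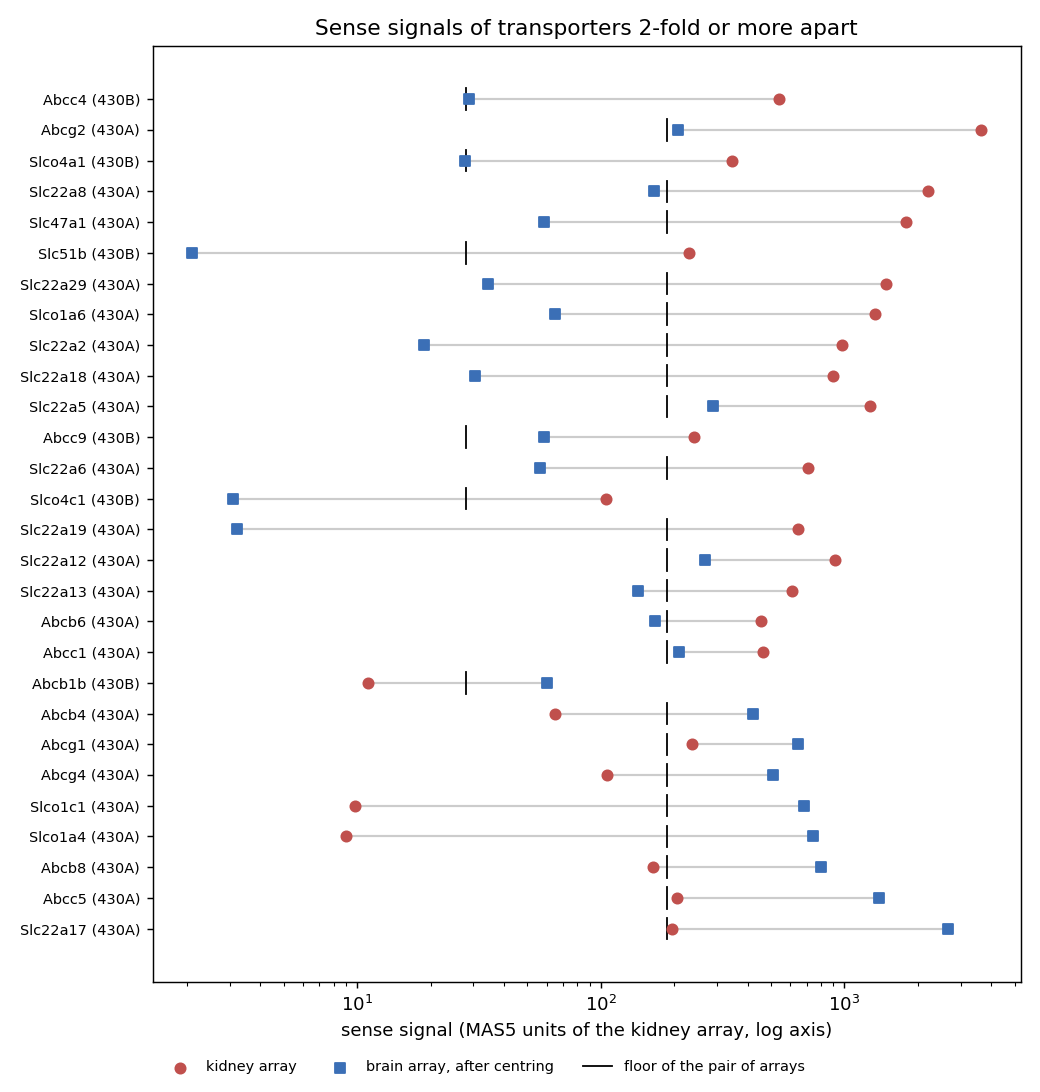
Sense signals of the transporters 2-fold or more apart, on a log axis in units of the kidney array. Red circles are the kidney array, blue squares the brain array after centring, black ticks the floor of the pair, and the array that carried the probe set follows each name. Kidney signals reach 3636.5 (Abcg2), and most of the lower signals lie below the floor, so that most folds are lower bounds.

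Bile acid and steroid export through Slc51 rests on a heteromer of Slc51a and Slc51b, the subunits OST alpha and OST beta. Slc51b read 229.6 in kidney and 9.1 in brain, an excess in kidney of at least 8.23-fold, and at least 2.67-fold on the 430A scale. Slc51a read 180.8 in kidney, just under the floor, and 62.7 in brain. The plain signals of both subunits were higher in kidney, but only Slc51b passed the threshold. That call was lost with signals as deposited, at a log2 ratio of 0.93.

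The 15 Slco genes, which encode the organic anion transporting polypeptides, had 3 members higher in kidney, 2 in brain, 3 above the floor but not called and 7 below it. Beside the 18.9% and 12.9% of all genes these counts were near the background, and on the 430A scale they were 2 in kidney and 3 in brain. Slco1a6 read 1330.3 in kidney and 36.3 in brain, which put it at least 7.14-fold higher in kidney. Slco1c1, the thyroxine carrier of the blood-brain barrier, read 9.8 in kidney and 382 in brain, which put it at least 3.67-fold higher in brain. Slco1a4, a carrier of steroid conjugates at the same barrier, read 9 in kidney and 416.2 in brain, which put it at least 4.002-fold higher in brain. A floor at the 75th percentile ended the calls of both brain genes, at log2 ratios of -0.58 for Slco1c1 and -0.70 for Slco1a4. Of 9 measured genes of blood-brain barrier endothelium, 2 were higher in kidney (Slc2a1 and Slc16a1) and 2 in brain (Mfsd2a, by a 430B probe set, and Slc7a5).

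These 3 genes lie in 1 run on chromosome 6, in the order Slco1c1, Slco1b2, Slco1a4, Slco1a1, Slco1a6 and Slco1a5, with at most 1 other protein-coding gene between members. Neighbours, all read on 430A, lay on opposite sides, 1 higher in kidney and 2 in brain, beside 13.8% and 13.1% of all genes there. Their promoter windows (RefSeq, GRCm38.p6, same span as above) are shown for comparison; capitals mark a TATAAA match.
Slco1a6 (chr6:142186100-142186399, minus strand): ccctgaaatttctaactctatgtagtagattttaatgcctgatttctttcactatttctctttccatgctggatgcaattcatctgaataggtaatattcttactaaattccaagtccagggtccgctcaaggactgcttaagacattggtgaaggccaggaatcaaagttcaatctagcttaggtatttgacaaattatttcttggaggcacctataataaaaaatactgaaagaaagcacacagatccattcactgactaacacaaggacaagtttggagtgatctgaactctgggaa
Slco1c1 (chr6:141524104-141524403, plus strand): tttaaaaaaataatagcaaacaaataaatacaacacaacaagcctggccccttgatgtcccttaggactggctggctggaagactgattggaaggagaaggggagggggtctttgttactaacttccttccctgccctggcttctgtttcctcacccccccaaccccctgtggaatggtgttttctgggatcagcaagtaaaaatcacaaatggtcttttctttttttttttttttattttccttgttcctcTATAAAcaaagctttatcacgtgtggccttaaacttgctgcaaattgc
Slco1a4 (chr6:141856171-141856470, minus strand): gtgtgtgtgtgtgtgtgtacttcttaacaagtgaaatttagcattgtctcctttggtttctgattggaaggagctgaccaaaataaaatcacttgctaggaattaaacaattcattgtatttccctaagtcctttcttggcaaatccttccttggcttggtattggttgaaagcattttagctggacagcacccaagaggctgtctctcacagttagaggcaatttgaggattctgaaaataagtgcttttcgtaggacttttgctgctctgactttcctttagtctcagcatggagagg

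The TATAAA of Slco1c1 begins 2 bases after the start, and the windows of Slco1a6 and Slco1a4 hold no match to any motif searched. The other 3 genes of the run were below the floor in both tissues. Slco1a1, known for higher levels in male than in female mouse kidney, gave 16.5 and 20.2 in kidney and 17.9 and 5.5 in brain. The same kidney array read Xist at 37.6 and the Y-linked Eif2s3y at 339.9, and a link of Slco1a1 to sex was not tested. Slco1b2, a carrier of liver cells, gave kidney signals of 2.1 to 29.9 and brain signals of 4.8 to 99.8 over 5 probe sets. Slco1a5 gave 7.7 and 2 in kidney and 20.3 and 55.4 in brain. The low readings of Slco1b2 stood beside 6 hepatocyte genes other than Ttr that were below the floor too.

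Outside that run, the kidney calls rested on 430B. Slco4a1 gave 345.6 and 168.7 in kidney and 120.1 and 126.2 in brain. Its first probe set, which is suffix-marked, was at least 12.4-fold higher in kidney and at least 4.02-fold on the 430A scale. The other was 5.78-fold higher in kidney, but under 2-fold on the 430A scale. Slco4c1, known in human and rat as a carrier of digoxin and thyroid hormone, gave 105.1 and 15.6 in kidney and 13.4 and 6 in brain. It was at least 3.77-fold higher in kidney, but at least 1.22-fold on the 430A scale, which ends the call. Slco2b1 gave 97.2, 88.1 and 3.3 in kidney and 512.5, 207.6 and 104.1 in brain. Its first probe set had a log2 ratio of -0.29 that became -1.91, a brain call, on the 430A scale. The second, which is suffix-marked, had a log2 ratio of 0.88, towards kidney, and of -0.75 on the 430A scale, with no call on either.

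Among the rest, Slco2a1, the prostaglandin carrier, read 266.1 in kidney and 131.4 in brain by the probe set that stood for it, with a log2 ratio of 0.18. Its 430B probe set (68.9 and 81) was at least 2.47-fold higher in kidney, but below the floor on the 430A scale. Slco3a1 read 136.5 in kidney and 200.4 in brain, which put it at least 1.93-fold higher in brain and thus just outside the threshold, and its other probe sets gave log2 ratios of 0.07 and -0.49. Slco5a1, Slco6b1, Slco6c1 and Slco6d1 were below the floor. The last 3, known from testis, have no tissue order at these signals.

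**Figure D3:**
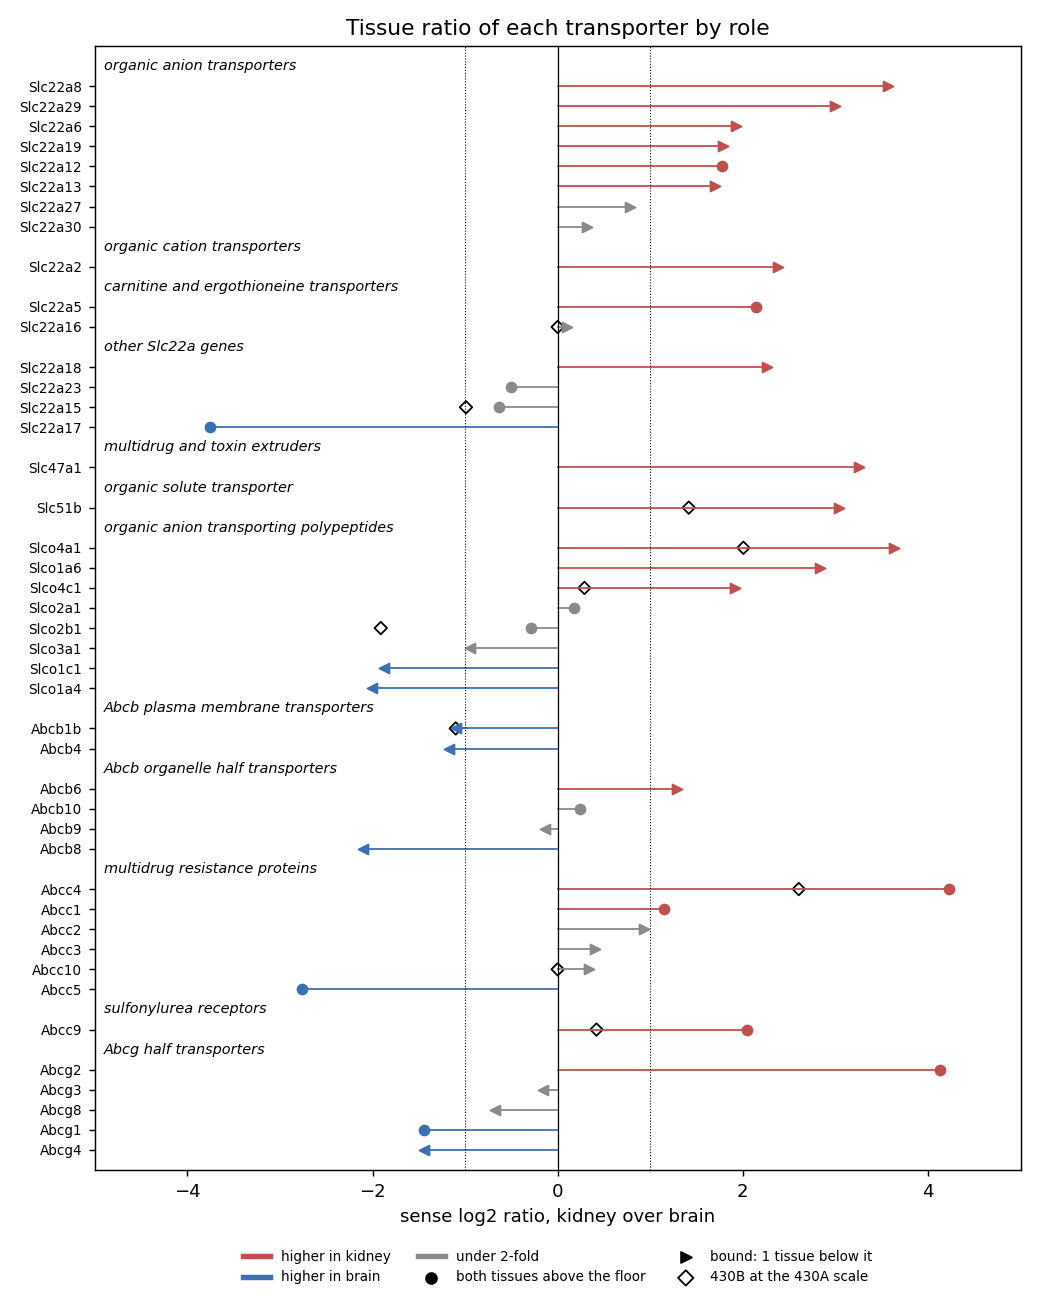
Sense log2 ratio, kidney over brain, of the 43 transporters above the floor in at least 1 tissue, grouped by role. Circles are genes above the floor in both tissues, triangles are bounds, open diamonds give 430B genes on the 430A scale, and dotted lines mark 2-fold. The Slc22a anion and cation carriers lie to the right of 0, whereas the Abcb plasma membrane genes lie to the left.

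Of the ABC transporters, the largest ratios towards kidney were those of Abcc4 and of Abcg2, the breast cancer resistance protein that also exports urate. Abcg2 read 3636.5 in kidney and 116.1 in brain, 17.5-fold higher with both tissues above the floor. Abcc4, the apical exporter MRP4 of anions and cyclic nucleotides, read 537.1 in kidney and 123.8 in brain, 18.8-fold higher and 6.08-fold on the 430A scale. Abcc1, the exporter MRP1, read 461.2 in kidney and 116.5 in brain, 2.21-fold higher, while its other probe set read 34 and 133.7 with a log2 ratio of -0.36. Abcg2 and Abcc4 kept their calls under all alternatives in which they were read, and Abcc1 lost it in 2.

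Abcc2 and Abcc3, exporters of conjugated metabolites, read 355.7 and 245.8 in kidney, against 40.3 and 40.1 in brain. Their bounds were at least 1.91-fold for Abcc2, just outside the threshold, and at least 1.32-fold for Abcc3, so neither was called. Abcc10 read 35.3 in kidney and 45.9 in brain, with a log2 ratio of 0.34 and below the floor on the 430A scale, and Abcc6 and Abcc12 were below the floor. Abcc5, an exporter of cyclic nucleotides, was the member of this group on the brain side, at 205.3 in kidney and 774.9 in brain and 6.76-fold higher in brain. Among its 10 probe sets, 5 passed the threshold towards brain and 0 towards kidney, with log2 ratios of -2.76 to 0.07.

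The P-glycoprotein run on chromosome 5 lay on the brain side where it was above the floor. Abcb1b read 11.1 in kidney and 258.8 in brain by a 430B probe set, at least 2.15-fold higher in brain on either scale, but 16.8 and 15.6 by its 430A probe set. Abcb4, a phospholipid flippase, read 65.1 in kidney and 235.5 in brain, which put it at least 2.26-fold higher in brain. Abcb1a, the P-glycoprotein of the blood-brain barrier, gave 32 and 10 in kidney and 90.1 and 59.6 in brain, all below the floor. The calls of Abcb1b and Abcb4 lay just inside the threshold and were lost with the floor at the 75th percentile. Abcb4 was also not called with signals as deposited (log2 ratio -0.96), nor was Abcb1b with the median over probe sets (-0.55) or with 430A alone. Abcb11, the bile salt export pump of the liver, was below the floor.

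The Abcb transporters of organelles went both ways. Abcb6, a porphyrin transporter, read 454.6 in kidney and 92.7 in brain, which put it at least 2.44-fold higher in kidney. Abcb8, a mitochondrial transporter, read 163 in kidney and 446.2 in brain, which put it at least 4.29-fold higher in brain, through a suffix-marked probe set. Its other probe set read 168.1 in kidney and 28.7 in brain, below the floor, so the probe sets point opposite ways in plain signal. Abcb10, which acts in heme synthesis, read 321.4 and 152.1, and the lysosomal peptide carrier Abcb9 52.8 and 114.3, and neither was called.

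The cholesterol exporters Abcg1 and Abcg4 were on the brain side. Abcg4 gave 106 and 27.7 in kidney and 283.8 and 362.7 in brain, which put it at least 2.73-fold higher in brain. Both of its probe sets passed 2-fold, and both are suffix-marked. Abcg1 read 236.8 in kidney and 360.5 in brain, 2.73-fold higher in brain after centring. It was not called with signals as deposited, with the floor at the 75th percentile or with the median over probe sets. Its 430B probe set, at 41 and 254, was 1.43-fold higher in brain, and 2.11-fold on the 430A scale. The sterol pair Abcg5 and Abcg8 read 48.6 and 57.1 in kidney and 43.8 and 166.8 in brain, and Abcg3 15.4 and 116.4. None of these 3 was called.

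The sulfonylurea receptors Abcc8 and Abcc9 are subunits of ATP-sensitive potassium channels. Abcc9 read 241.4 in kidney and 253.1 in brain, so its 4.12-fold kidney call rested on centring 430B and shrank to 1.34-fold on the 430A scale. Another of its probe sets, at 87.3 and 244.8, was under 2-fold but reached a brain call on the 430A scale. Abcc8 was below the floor by the probe set that stood for it, at 28.8 in kidney and 102.8 in brain, whereas its 430B probe set read 0.8 and 296.7, at least 2.46-fold higher in brain on either scale. The call of Abcc9 thus depended on the scale and that of Abcc8 on the probe set.

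Across all members, 31 genes had several sense probe sets and 14 had at least 2 above the floor. Over these 14 the ratios of a gene's probe sets differed by a pooled SD of 0.97 on the log2 scale. The SD of 0.25 of the repeat reading is not a like measure. It compares brain signals of the same probe sets, all exceeding both medians, and not tissue ratios of different probe sets. No gene had probe sets called in opposite directions. With the floor at the 75th percentile, the kidney calls of Slc22a6, Slc22a13, Slc22a18, Slc22a19, Slco4c1, Abcb6 and Abcc1 were lost, and the brain calls of all but Slc22a17 and Abcc5. The median over probe sets ended the calls of Slc22a6, Slco4c1, Abcc1, Abcc9, Abcb1b, Abcc5 and Abcg1, and leaving out suffix-marked probe sets those of Slc22a12, Abcc9 and Abcb8. The members just inside 2-fold were Abcb1b, Abcc1, Abcb4 and Abcb6, and those just outside were Slco3a1, Abcc2, Slc22a27 and Abcg8, at least 1.93-, 1.91-, 1.72- and 1.60-fold apart.

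**Figure D4:**
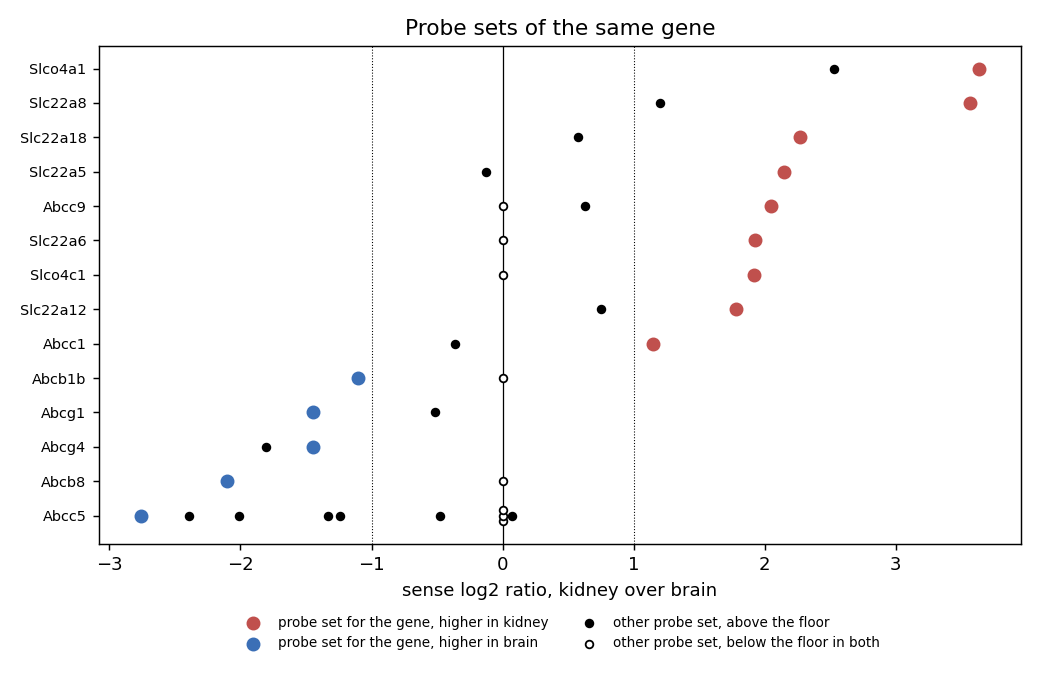
Sense log2 ratio, kidney over brain, of each probe set of the called transporters that have several. Large points are the probe set that stood for the gene, small black points the others, open points those below the floor in both tissues, and dotted lines mark 2-fold. Slc22a5, Abcc1 and Abcc5 have another probe set on the other side of 0, in Abcc5 at a log2 ratio of 0.07.

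The 20 transporters below the floor in both tissues, by the probe set that stood for each, were Abcb11, Abcb1a, Slc22a4, Abcg5, Slc51a, Slco6d1, Slco6c1, Slc22a14, Slco1a5, Slco1b2, Slco6b1, Slco5a1, Abcc8, Slc22a22, Abcc6, Abcc12, Slc22a21, Slc22a7, Slco1a1 and Slc22a26. Those read on 430A had signals of 2 to 180.8 in kidney and 1.3 to 102.8 in brain, and those read on 430B 1.2 to 11.2 in kidney and 33.8 to 98.5 in brain. Abcc8 was above the floor in brain by its 430B probe set. A probe set below the floor gives no tissue order, and its transcript need not be absent.

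Genes that work with these transporters were read from lists chosen for their roles. Of 13 measured dicarboxylate carriers, scaffold proteins and other partners, 7 were higher in kidney and none in brain, with a median log2 ratio of 2.05, beside 0 for all genes. Pdzk1, a scaffold of apical carriers, read 4146.4 in kidney and 15.5 in brain, and the exchanger Slc9a3 read 559.3 and 217.3, with a log2 ratio of 3.48, or 1.85 on the 430A scale. The sulfate carrier Slc13a1 read 1759.3 and 44.5, and the phosphate and urate carrier Slc17a1 1610.9 and 47.8. Slc13a3, which supplies the dicarboxylates that OAT1 and OAT3 exchange, read 1386.6 in kidney and 140.8 in brain, 5.50-fold higher in kidney.

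Of 13 transcription factors known to act on transporter genes, 4 were higher in kidney and none in brain, and the list had a median log2 ratio of 0.68. Hnf4a, a nuclear factor of liver and proximal tubule, read 2171.6 in kidney and 108.7 in brain, 11.1-fold higher. The other 3 were the fatty acid receptor Ppara (318.6 and 123.7, log2 ratio 3.48 or 1.85 on the 430A scale), the oxidative stress factor Nfe2l2 (1301.3 and 139) and the vitamin D receptor Vdr (749.9 and 47.1). The xenobiotic receptors Nr1i2 (53.2 and 43) and Nr1i3 (40.2 and 8.5) were below the floor. Of 16 conjugating enzymes 8 were higher in kidney and none in brain, at a list median of 0.91, led by the glutathione transferase Gsta2 at 4173.3 in kidney and 26.6 in brain. Gss, Gclm and Gsta4, the other 3 largest, read 868.1, 498.9 and 1475 in kidney and 224, 331.4 and 165.3 in brain. On the 430A scale the log2 ratio of Gss was 2.44 and that of Gclm 1.08, both still higher in kidney.

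ABC transporters outside the symbol rule had a median log2 ratio of 0. Of the 22 measured, 3 were higher in kidney, 1 in brain and 18 were not called, some of them below the floor in both tissues. Their largest ratios belonged to Abca13 (616.4 in kidney and 67.9 in brain), the peroxisomal Abcd3 (3089.9 and 411.8), Abca2 (108.6 and 367.5, towards brain) and the lung surfactant lipid carrier Abca3 (1196.3 and 281.6). On the 430A scale the log2 ratio of Abca13 was 2.84 in place of 4.47, and 3 of the 22 were higher in brain.

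On the reverse side, 8 transporters had a probe set, 4 on U74A and 4 on U74B. Signals were compared as deposited, with floors at the 75th percentile of 63.5 for U74A and 98.5 for U74B. Of the 8, none was 2-fold or more higher in kidney and 1 was higher in brain, beside 1.61% and 6.86% of all 2915 genes with a reverse probe set. With so few genes, these shares say nothing about the transporters as a set. The 3 above the floor were Slc47a1, Slc51b and Abcg1.

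The reverse probe set of Slc47a1 read 168.7 in kidney and 6.5 in brain. Only the kidney signal was above the floor, which allows a bound of at least 1.71-fold and so no call. Its sense probe set read 1785.5 in kidney and 32.7 in brain, higher in kidney as well. The plain reverse signal of the cation exchanger thus lay on the same side as its sense signal. The bound for the reverse fold of Slc47a1 stayed below the threshold. Without any floor its reverse log2 ratio was 4.70.

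The reverse probe set of Slc51b read 183 in kidney and 219.4 in brain, above the floor in both, with a log2 ratio of -0.26 and thus under 2-fold. Its sense probe set, in contrast, read 229.6 in kidney and 9.1 in brain. In brain, the reverse reading was above its floor and the sense reading below it. The difference between the strands was not tested, since each has 1 array.

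The reverse probe set of Abcg1 read 60.2 in kidney and 142.6 in brain, which put it at least 2.25-fold higher in brain. Its sense probe set read 236.8 in kidney and 360.5 in brain, also on the brain side after centring. The reverse call was lost when the pair was centred on its median (log2 ratio -0.72) or quantile normalized (-0.45). None of the 8 transporters was then called in either direction, beside 2.09% of all genes in kidney and 5.32% in brain after median-centring and 3.7% and 2.64% after quantile normalization. Both strands of Abcg1 therefore had calls that depended on scaling.

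The other 5 reverse probe sets were below the floor in both tissues. They were those of Slc51a (10.2 in kidney and 10 in brain), Slco3a1 (18.6 and 19), Slc22a23 (18.3 and 10.9), Slc22a16 (9 and 5.7) and Slc22a21 (13.9 and 45.3). Of these genes, Slc22a23 was above the floor in both tissues on the sense arrays. Levels of a reverse and a sense probe set were not set against each other as amounts, because probes differ in binding strength and the arrays in scale.

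**Figure D5:**
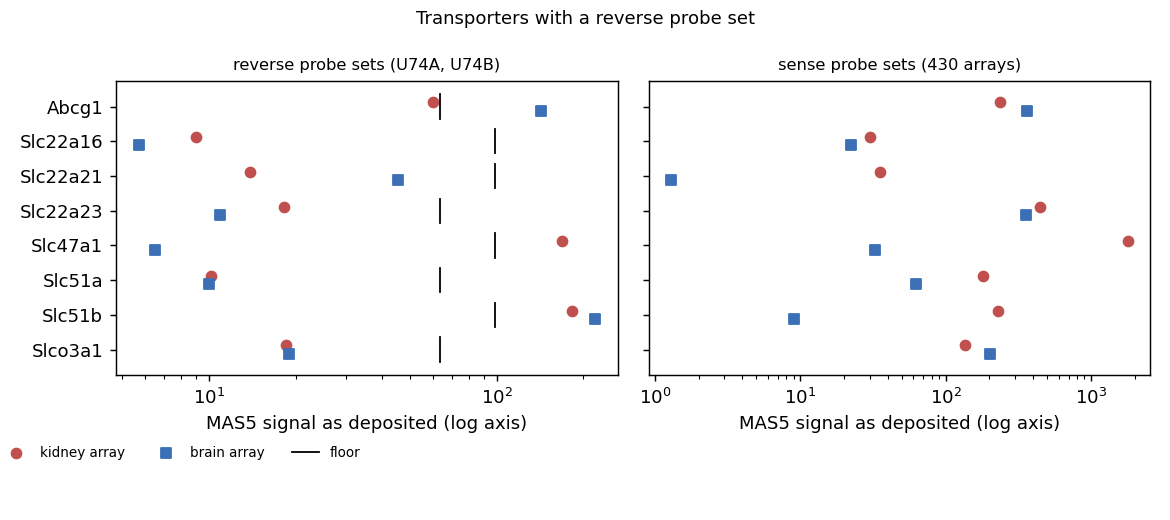
Deposited signals of the 8 transporters with a reverse probe set, on log axes. The left panel gives reverse probe sets with the floor of each array pair as a black tick, the right panel the sense probe set of the same gene. Red circles are kidney arrays and blue squares brain arrays. Slc47a1, Slc51b and Abcg1 are the genes with a reverse signal above the floor.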

How the data were processed

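Total RNA of mouse kidney and brain was read on 7 arrays. The deposited intensity values are linear MAS5 signals (per the submitters' processing notes), and the U74 tables hold the reverse probe sets, per the labels. The scaling target and a genome build are not given in the sources used here. Gene symbols came from the platform annotation in GEO, updated by gene identifier to RefSeq GRCm38.p6. How many of the 63 member symbols this changed was not counted. On 430A and 430B, 20380 and 14661 probe sets had 1 symbol, 691 and 245 several, and 1555 and 7605 none. On the reverse U74A and U74B sets 1552 and 1763 had 1, 17 and 66 several, and 1042 and 1212 none.

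Each brain sense array was shifted so that probe sets exceeding both arrays' medians had a median log2 ratio of 0, using the 100 shared probe sets once, on 430A. The sense floor was the higher median after centring, the reverse floor the higher 75th percentile. Signals below a floor were raised to it, and a gene was called at 2-fold if above the floor in at least 1 tissue. No test was run, because each group has 1 array, and precision is limited by that number. Counting steps were tested on simulated data. Values came from Python 3.11.15 with pandas 2.3.3 and numpy 2.4.6. Every member may be named. The rule for other genes was the 4 largest ratios of each pathway list and, of a marker list, its counts, signal range and the 2 markers listed first, which are given here only in part. Slc13a3, Nr1i2, Nr1i3, Mfsd2a, Slc7a5, Slc16a1, Lrp2, Flt1, Otx2 and Kcne2 were named after their values were seen. Members, lists and rules were chosen with earlier results of these data known. Alternatives covered scaling, floors, the probe set that stands for a gene, suffix-marked probe sets and, added after seeing the data, 430A alone.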

Additional observations from a re-analysis of the deposited data

How the results depend on the processing

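The sense counts of 19 transporters higher in kidney and 9 in brain changed as follows with scaling: 21 and 8 with signals as deposited, 21 and 10 with quantile normalization and 17 and 10 with 430B at the 430A scale. The floor moved them to 12 and 2 at the 75th percentile and to 27 and 25 with no floor. Taking the median over probe sets gave 15 and 6. Without suffix-marked probe sets the counts were 16 and 7 of 56 genes, and with 430A alone 14 and 8 of 53. Of the 19 kidney calls 9 held in each of these settings that could be run for the gene, and of the 9 brain calls 1, that of Slc22a17. The ratio of Abcc9 turned to -0.0683 with signals as deposited, since centring had lifted 430B ratios. Over all genes, the calls were 18.9% in kidney and 12.9% in brain, but 10.8% and 18.3% with 430B at the 430A scale. With 430A alone they were 13.0% and 12.8%. Shares over all genes were not counted for the other settings. The transporter counts there, those of the changed floors included, have no background to be read against.

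On the reverse side, 0 transporters in kidney and 1 in brain became 0 and 0 after median-centring, quantile normalization or a floor at the 90th percentile, and 1 and 2 with no floor. For these changed floors, too, shares over all genes were not counted. Each tissue has 1 array per design, so no replicate could be left out. No paired analysis was possible because each group has 1 array. The floors stand in for detection calls, and carriers under them, such as Slc51a and Abcb1a, have no tissue order.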
